A study of Mus musculus with 9 samples.

Results

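The intestinal identity transcription factors described here are 8 genes, Cdx1, Cdx2, Hnf4a, Gata4, Gata6, Klf4, Klf5 and Meis2, out of 20660 genes named on the array. They were chosen by symbol: each array probe whose RefSeq accession belongs to one of these mouse genes was taken, which gave 1 probe and 1 spot for each gene. All 8 passed the filter on dim probes that left 14034 tested genes. RNA of mouse colon organoids, epithelial structures grown in culture from colon, was labelled with Cy3 and hybridised to 9 Agilent single-colour arrays. The groups hold 3 arrays each, from untreated organoids (0 weeks) and from organoids kept for 12 weeks or for 60 weeks with inflammatory reagents, which the labels do not name. The labels give no strain, genotype, age or animal, and they do not say whether the 3 replicates of a group are separate cultures, so p-values measure the spread between these samples, which may be technical. Untreated cultures of 12 or 60 weeks were not analysed here, so treatment and time in culture cannot be told apart.

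These factors set and keep the identity of the gut lining. Cdx1 and Cdx2 are caudal-type homeobox factors of the posterior gut, and in mice the loss of Cdx2 lets stomach or esophagus genes appear in intestine. Hnf4a is a nuclear receptor that activates genes of mature absorptive cells. Gata4 and Gata6 are zinc-finger factors with a regional division in the adult mouse, where Gata6 is found along small intestine and colon and Gata4 in the proximal small intestine. Klf4 marks differentiating and Klf5 proliferating cells of the crypt. Meis2 is a homeodomain partner of Hox and Pbx proteins.

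Levels are given as log2 intensity relative to the 75th percentile of the same array, so a probe at that percentile has a level of 0. They are not compared between probes. Changes are log2 fold changes ± SE from limma over all 9 arrays, and a change was called at a Benjamini-Hochberg adjusted p under 0.05 over all 14034 tested genes. Probes well above background made up 49.2% to 52.7% of each array. Among replicates, replicate 2 of 12 weeks stood apart, with correlations across genes of 0.978 and 0.977 to the other 12 weeks arrays, which correlated at 0.992 with each other; the 12 weeks results that turn on it are given with and without it.

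Among the 8 factors, the largest changes were in the GATA pair and in Meis2. Gata4 was at or near background in untreated organoids and rose in both treated groups, while Gata6 fell, slightly at 12 weeks and 7.43-fold at 60 weeks. Meis2 fell at 12 weeks, and at 60 weeks its 3 values lay above the untreated ones without passing the test. Hnf4a and Cdx2 were raised at 12 weeks, and neither was called at 60 against 0 weeks. Klf4 was lower at 60 than at 12 weeks, and Klf5 and Cdx1 were not called in any comparison.

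**Figure D1:**
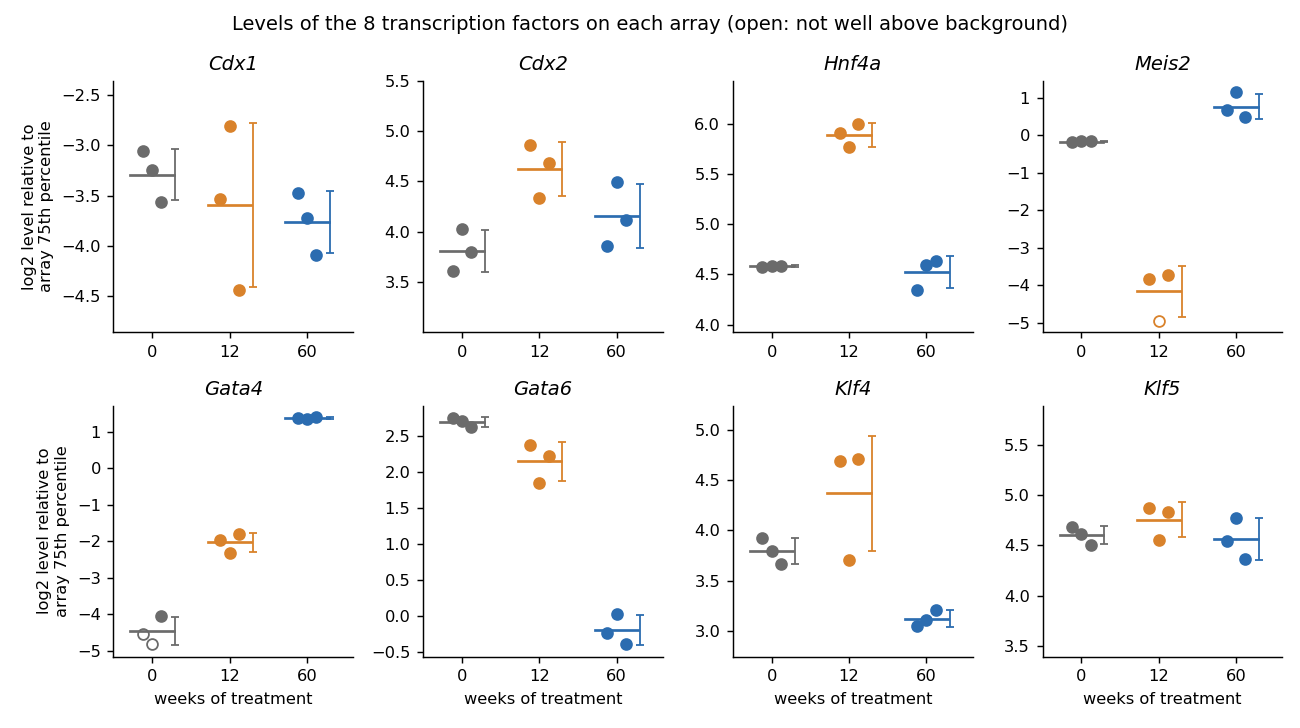
Log2 level of each of the 8 factors on each of the 9 arrays by weeks of treatment, with 1 point per array, a line at the group mean and a bar for ± 1 SD (n = 3); each panel has its own vertical axis. Gata4 lies between -4.81 and -4.05 at 0 weeks and between 1.33 and 1.39 at 60 weeks, whereas Klf5 overlaps among all groups.

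Of the 8 factors, 3 were called higher at 12 against 0 weeks (Cdx2, Hnf4a and Gata4), where 19.1% of all tested genes were called higher, and 2 were called lower (Gata6 and Meis2), against 22.7% of all tested genes. The arrays of the 2 groups did not overlap for 5 of 8 factors, against 54.6% of all tested genes. In the comparison of 60 with 0 weeks, Gata4 was the 1 factor called higher (16.7% of all tested genes) and Gata6 the 1 called lower (16.1%). Groups did not overlap there for 4 of 8 (56.5% of all tested genes), namely Gata4, Gata6, Klf4 and Meis2. At 60 against 12 weeks, 2 were higher (Gata4 and Meis2, against 20.7% of all tested genes) and 3 lower (Hnf4a, Gata6 and Klf4, against 17.6%), and 5 of 8 did not overlap, against 47.3%. The F test among the 3 groups called 6 of 8, against 56.7% of all tested genes. These shares are of the same order as the background, so the counts do not set the factors apart from other genes. The comparisons against 0 weeks share the 0 weeks arrays, and that of 60 against 12 weeks shares its arrays with both.

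Gata4 had log2 levels of -4.54, -4.81 and -4.05 in untreated organoids, -1.96, -2.31 and -1.81 after 12 weeks, and 1.37, 1.33 and 1.39 after 60 weeks. The 3 groups lay in separate ranges, in the order of time. Only 1 of the 3 arrays at 0 weeks was well above background, against 3 of 3 in each treated group. The mean level was -2.03 ± 0.26 at 12 weeks and -4.47 ± 0.39 at 0 weeks (SD, n = 3 each), a rise of 2.44 ± 0.20 (adjusted p = 5.02e-05). At 60 weeks it was 1.37 ± 0.03, a rise of 5.84 ± 0.20 over 0 weeks (adjusted p = 5.72e-07) and of 3.40 ± 0.20 over 12 weeks (adjusted p = 1.18e-05). With 2 of 3 untreated arrays not well above background, the rises over 0 weeks are fitted values and not measured folds. Their size depended on the background correction: with normexp the rises were 0.95 at 12 against 0 weeks and 3.75 at 60 against 0 weeks, both still called.

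Gata6 had log2 levels of 2.75, 2.71 and 2.62 at 0 weeks. The 12 weeks arrays gave 2.38, 1.85 and 2.22, and those of 60 weeks -0.24, 0.03 and -0.38. The 3 groups again did not overlap, now in falling order, with a narrow gap of 0.24 between the 0 and 12 weeks arrays. At 60 weeks the mean was -0.20 ± 0.21, against 2.70 ± 0.07 at 0 weeks, a change of -2.89 ± 0.16 (adjusted p = 7.26e-06), and it was also lower than at 12 weeks (change -2.35 ± 0.16, adjusted p = 2.41e-05). The small difference of -0.55 ± 0.16 at 12 against 0 weeks (adjusted p = 0.0248) was not stable: it was not called with the array median as the scale (adjusted p = 0.0513), without any 1 of the 3 arrays of 0 weeks (0.0525 to 0.0734) or without replicate 3 of 12 weeks (0.0504). Within the slide row that holds the 0 weeks arrays and replicate 1 of 12 weeks, the difference was -0.31 (adjusted p = 0.244). Of the other GATA genes tested, Gata3 fell by 0.81 at 12 weeks (change -0.81 ± 0.17, adjusted p = 0.00687) and averaged 1.68 at 60 weeks and 1.29 at 0 weeks, which was not called. Gata5, the third GATA factor of gut endoderm, was not called in either comparison against 0 weeks (adjusted p = 0.290 at 12 weeks and 0.782 at 60 weeks).

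Meis2 had log2 levels of -0.18, -0.14 and -0.16 in untreated organoids, -3.82, -4.94 and -3.72 after 12 weeks, and 0.67, 1.15 and 0.49 after 60 weeks. Every 12 weeks array was far below every other array, and replicate 2 was not well above background. The change at 12 against 0 weeks was -4.00 ± 0.31 (adjusted p = 3.91e-05), and at 60 against 12 weeks it was 4.93 ± 0.31 (adjusted p = 1.71e-05). At 60 weeks Meis2 averaged 0.77 ± 0.34, against -0.16 ± 0.02 at 0 weeks, a difference of 0.93 ± 0.31 that missed the threshold (adjusted p = 0.0515) although the arrays did not overlap. That difference was called without replicate 2 of 12 weeks, which adds only to the shared spread (adjusted p = 0.00320), and in 6 other alternatives. With normexp, the changes were -2.32 at 12 against 0 weeks and 3.10 at 60 against 12 weeks, both called.

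Meis3 and genes for the TALE partners Pbx2, Pbx3 and Pknox1 were also tested. Pbx2 and Pbx3 were slightly higher at 12 than at 0 weeks (0.36 ± 0.08 and 0.31 ± 0.08), a call that Pbx3 lost without replicate 3 of 0 weeks or replicate 1 or 3 of 12 weeks (adjusted p = 0.0534 to 0.0731). Meis3 averaged 1.01 at 12 weeks and 1.31 at 0 weeks, which was not called (adjusted p = 0.0612), nor was Pknox1. None of these 4 genes was called at 60 against 0 weeks, where the lowest unadjusted p among them was 0.248, for Pbx2. Meis1 was too dim to be tested.

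Hnf4a had log2 levels of 4.57, 4.59 and 4.59 at 0 weeks. The 12 weeks arrays gave 5.91, 5.76 and 6.0, and those of 60 weeks 4.34, 4.59 and 4.63. The 12 weeks arrays were above all others, and those of 0 and 60 weeks overlapped. The mean was 5.89 ± 0.12 at 12 weeks and 4.58 ± 0.01 at 0 weeks, a rise of 1.31 ± 0.11 (2.48-fold, adjusted p = 5.18e-05). At 60 weeks Hnf4a was lower than at 12 weeks (change -1.37 ± 0.11, adjusted p = 6.10e-05). Between 60 and 0 weeks the difference was -0.06, with a 95% interval of -0.31 to 0.19. Hnf4g, the paralog of Hnf4a in intestinal epithelium, was also higher at 12 than at 0 weeks (2.43 ± 0.34, adjusted p = 0.000866), with levels of -0.18 ± 0.81 and -2.61 ± 0.04. The Hnf4g difference between 60 and 0 weeks was 0.68 ± 0.34, which was not called (adjusted p = 0.160).

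Cdx2 had log2 levels of 3.61, 4.02 and 3.80 in untreated organoids, 4.86, 4.33 and 4.68 after 12 weeks, and 3.86, 4.49 and 4.11 after 60 weeks. The 12 weeks arrays were above those of 0 weeks without overlap, and the 60 weeks arrays overlapped with both. The rise at 12 against 0 weeks was 0.82 ± 0.20 (1.76-fold, adjusted p = 0.0126) and was called in all 23 alternatives. At 60 weeks the mean was 4.15 ± 0.32, against 3.81 ± 0.21 at 0 weeks, a difference of 0.34 ± 0.20 (adjusted p = 0.223). The difference of -0.47 ± 0.20 at 60 against 12 weeks was not called (adjusted p = 0.0968), and it was called without replicate 2 of 12 weeks (change -0.62, adjusted p = 0.0355) or without replicate 2 of 60 weeks (-0.64, adjusted p = 0.0462).

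Cdx1 had log2 levels of -3.06, -3.24 and -3.57 at 0 weeks. The 12 weeks arrays gave -3.53, -2.81 and -4.44, and those of 60 weeks -3.47, -3.72 and -4.09. All 3 groups overlapped. The probe was well above background on all 9 arrays, yet dim, with intensities of 26.0 to 76.1 where the lowest intensity so called was 15.9 to 23.3 per array. The change was -0.30 ± 0.37 at 12 against 0 weeks (95% interval -1.16 to 0.55) and -0.47 ± 0.37 at 60 against 0 weeks (-1.33 to 0.38). The sign at 12 against 0 weeks turned without replicate 3 of 12 weeks (0.12), and these intervals include a fall, but not a rise, of the size seen for Cdx2 at 12 weeks. Cdx4 was too dim to be tested.

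RefSeq's table of promoters (build GRCm38.p6, 250 bases before to 50 after a start site) gave the entries used for 4 of the 8 factors. These were 2 starts of Hnf4a, and 1 each of Cdx2, Meis2 and Klf4. The table had no entry for Gata4 or Klf5. Promoters of Cdx1 and Gata6 were not examined here, so the count of 4 does not say whether the table held them. Sequences are shown for 2 of the 3 genes called higher at 12 against 0 weeks, and for the 1 that fell most. They run 5′ to 3′ on the gene's strand. Capitals mark matches, on either strand, to short core motifs of the factor families themselves. The letters searched were TTTATG as the Cdx motif, CAAAGT as the Hnf4 motif, CACCC as the Klf motif and AGATAA as the motif of GATA factors. None of the matches shown overlap.
Hnf4a, upstream start, chr2:163506607-163506906, plus strand: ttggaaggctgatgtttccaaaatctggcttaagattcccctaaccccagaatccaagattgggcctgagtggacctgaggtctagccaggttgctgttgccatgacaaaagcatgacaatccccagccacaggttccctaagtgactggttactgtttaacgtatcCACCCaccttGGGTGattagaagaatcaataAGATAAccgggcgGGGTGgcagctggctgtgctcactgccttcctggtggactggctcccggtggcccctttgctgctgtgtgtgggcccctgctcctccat
Hnf4a, downstream start, chr2:163546905-163547204, plus strand: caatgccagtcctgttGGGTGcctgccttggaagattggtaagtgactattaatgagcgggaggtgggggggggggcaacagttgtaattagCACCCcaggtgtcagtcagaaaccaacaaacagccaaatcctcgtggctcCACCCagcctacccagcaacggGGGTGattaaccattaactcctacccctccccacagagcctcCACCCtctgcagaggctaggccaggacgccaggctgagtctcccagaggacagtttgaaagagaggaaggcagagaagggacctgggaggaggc
Cdx2, chr5:147307200-147307499, minus strand: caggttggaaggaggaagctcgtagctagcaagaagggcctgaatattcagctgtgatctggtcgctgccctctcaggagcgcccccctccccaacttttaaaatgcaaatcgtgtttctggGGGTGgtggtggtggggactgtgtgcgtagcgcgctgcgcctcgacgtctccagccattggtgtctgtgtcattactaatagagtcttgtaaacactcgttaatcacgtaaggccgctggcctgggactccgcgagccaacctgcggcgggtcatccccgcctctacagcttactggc
Meis2, chr2:116064570-116064869, minus strand: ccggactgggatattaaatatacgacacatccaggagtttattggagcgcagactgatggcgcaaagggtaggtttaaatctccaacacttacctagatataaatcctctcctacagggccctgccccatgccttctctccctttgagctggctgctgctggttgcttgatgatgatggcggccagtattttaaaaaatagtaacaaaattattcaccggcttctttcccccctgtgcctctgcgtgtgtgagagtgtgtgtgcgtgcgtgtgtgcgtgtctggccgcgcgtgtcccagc
The upstream Hnf4a promoter held 1 Gata motif, 52 bases before the start site, and 3 Klf motifs, and the downstream one held 5 Klf motifs. Cdx2 held 1 Klf motif and Meis2 none of the 4 motifs. Among the 32851 promoters counted, 11.2% held the Gata motif, 57.5% the Klf motif, 11.9% the Cdx motif and 14.4% the Hnf4 motif. The matches are letters in a window and not shown to be bound, and the single Hnf4a probe gives 1 value for both starts.

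Klf4 had log2 levels of 3.92, 3.79 and 3.67 in untreated organoids, 4.69, 3.70 and 4.71 after 12 weeks, and 3.05, 3.11 and 3.21 after 60 weeks. The 60 weeks arrays were below all others, and at 12 weeks replicates 1 and 3 were above every untreated array while replicate 2 lay among them. The change at 60 against 12 weeks was -1.25 ± 0.25 (adjusted p = 0.00614). At 12 against 0 weeks it was 0.57 ± 0.25 (adjusted p = 0.0980), and without replicate 2 of 12 weeks it was 0.90 (adjusted p = 0.000323). The 60 against 0 weeks change was -0.67 ± 0.25 (adjusted p = 0.0712), and the same difference had an adjusted p of 0.00109 without that array. Of 23 alternatives, the difference at 12 against 0 weeks was called in 2 (that one and array weights) and the difference at 60 against 0 weeks in 4 (these, trend and robust eBayes, and a fit of only the 2 groups compared).

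Klf5 had log2 levels of 4.68, 4.61 and 4.51 at 0 weeks. The 12 weeks arrays gave 4.87, 4.55 and 4.83, and those of 60 weeks 4.54, 4.78 and 4.36. All groups overlapped. The change was 0.15 ± 0.14 at 12 against 0 weeks (95% interval -0.16 to 0.46) and -0.04 ± 0.14 at 60 against 0 weeks (-0.35 to 0.27), intervals that leave room only for changes smaller than that of Hnf4a at 12 weeks. In the wider Klf family, Klf11 and Klf10, both TGF-beta-responsive repressors, fell at 12 weeks (changes -1.53 ± 0.09, adjusted p = 8.44e-06, and -1.30 ± 0.16, adjusted p = 0.000424). At 60 weeks Klf11 was still lower than at 0 weeks (-0.37 ± 0.09, adjusted p = 0.0146), and Klf10 averaged 3.18, against 3.21 at 0 weeks. Klf7 was higher at 60 than at 0 weeks (0.45 ± 0.13, adjusted p = 0.0255). Klf6 averaged 5.85 at 60 weeks, against 5.47 at 0 weeks, which was not called. At 12 against 0 weeks Klf6 was higher (0.53, adjusted p = 0.0164), a call lost without replicate 3 of 0 weeks or replicate 1 or 3 of 12 weeks (adjusted p = 0.0552 to 0.0619). The 60 weeks calls were lost for Klf11 without replicate 1 or 3 of 0 weeks or replicate 1 of 60 weeks (adjusted p = 0.0509 to 0.0585), and for Klf7 without replicate 2 or 3 of 0 weeks or replicate 1 or 2 of 60 weeks (0.0593 to 0.0923).

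**Figure D2:**
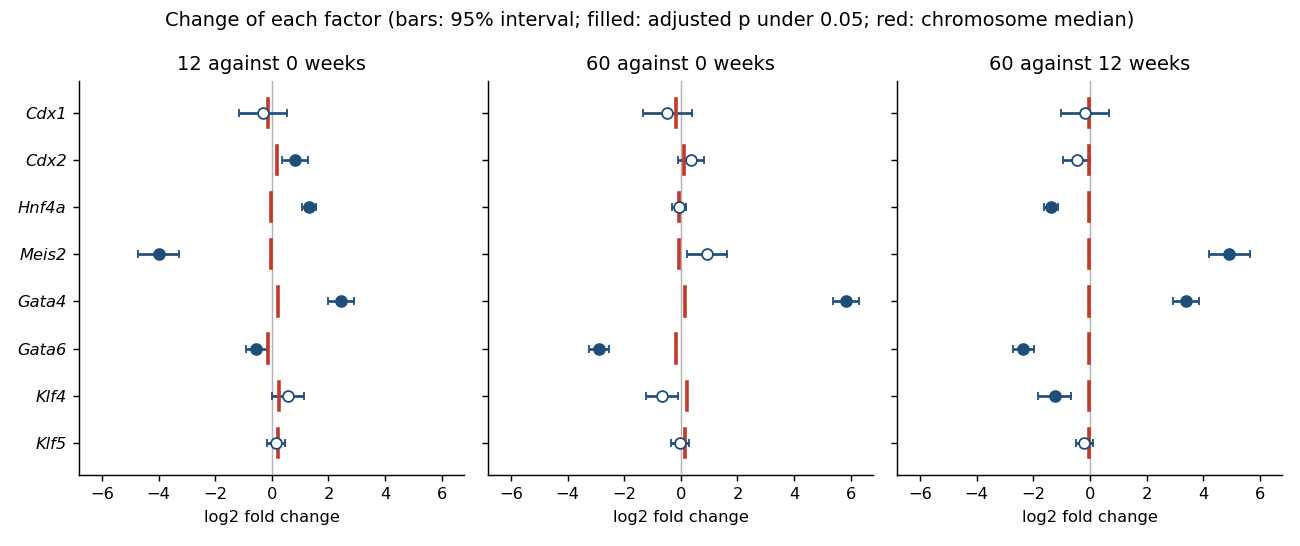
Log2 fold change of each factor in the 3 comparisons, with bars for the 95% interval, filled points where the adjusted p was under 0.05 and a red tick at the median change of the tested genes on the factor's chromosome. Gata4 lies at 5.84 and Gata6 at -2.89 in the comparison of 60 against 0 weeks, and Meis2 changes side between -4.00 at 12 against 0 weeks and 4.93 at 60 against 12 weeks.

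Counted together, 17 of 25 family members of the factors were tested. At 12 against 0 weeks 4 were higher and 5 lower, against 19.1% and 22.7% of all tested genes. Their median change was -0.24, against -0.06 over all tested genes. At 60 against 0 weeks 1 was higher and 1 lower (16.7% and 16.1% of all tested genes), with a median of 0.05 against -0.04. At 60 against 12 weeks 6 were higher and 3 lower (20.7% and 17.6% of all tested genes), with a median of 0.25 against 0.02. With replicate 2 of 12 weeks left out, 4 were higher at 60 against 0 weeks and 6 were lower at 60 against 12 weeks.

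The median change between treated and untreated organoids differed among chromosomes, and the factors lie on several of those that stood apart. The tested genes of chromosome 4 (Klf4) had a median change of 0.26 at 12 against 0 weeks and 0.21 at 60 against 0 weeks, those of chromosome 5 (Cdx2) 0.17 and 0.11, and those of chromosome 14 (Gata4 and Klf5) 0.20 and 0.13, against -0.06 and -0.04 over all tested genes. On chromosome 4, 37.2% of tested genes were called higher at 12 weeks, on chromosome 5 30.1% and on chromosome 14 30.4%. Chromosome 2 (Hnf4a and Meis2) had medians of -0.03 and -0.06. Chromosome 18 (Cdx1 and Gata6) had -0.13 and -0.16, and 29.9% of its tested genes were called lower at 12 weeks (22.7% of all tested genes) and 20.7% at 60 weeks (16.1%). Relative to the median of its chromosome, Cdx2 was 0.65 higher at 12 than at 0 weeks, Klf4 0.32 higher and Gata4 2.24 higher. Gata4 was 5.71 above the median of its chromosome at 60 against 0 weeks. Klf4 differed from that of its own by -0.88 and Gata6 by -2.73. The part of the chromosome shifts in the changes of Cdx2, Gata6, Klf4 and Klf5 was not tested.

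Of the 9 tested genes next to a factor, 5 were called in the same direction as their factor in at least 1 comparison, and 1 in the opposite direction. The share of all tested genes that match a factor in this way was not computed, so the count does not set the neighbours apart. Neil2, a DNA glycosylase gene beside Gata4, was at background on the 3 untreated arrays; its level was at least 3.61-fold higher at 12 weeks (adjusted p = 7.14e-06) and at least 3.71-fold higher at 60 weeks (adjusted p = 7.67e-06). Between 60 and 12 weeks Neil2 differed by 0.04 ± 0.15 (adjusted p = 0.867), where Gata4 differed by 3.40. Blk, on its other side, was not called against 0 weeks. Ttpal, beside Hnf4a, was higher at 12 than at 0 weeks (0.62 ± 0.15, adjusted p = 0.0107) and lower at 60 than at 12 weeks (change -0.89 ± 0.15, adjusted p = 0.00255), the same directions as Hnf4a. The antisense gene Hnf4aos was not called against 0 weeks and was higher at 60 than at 12 weeks (1.55 ± 0.46, adjusted p = 0.0284), opposite to Hnf4a. Only 1 of the 3 arrays of 12 weeks was well above background for Hnf4aos, so that change is a fitted value and not a measured fold. Beside Gata6, Rbbp8 was lower at 60 than at 0 weeks (change -0.63 ± 0.17, adjusted p = 0.0225) and Mib1 was not called. Beside Klf4, Rad23b was higher at 12 than at 0 weeks (0.74 ± 0.11, adjusted p = 0.00146) and lower at 60 than at 12 weeks (change -0.41 ± 0.11, adjusted p = 0.0242), and beside Klf5, Pibf1 was higher (0.83 ± 0.13, adjusted p = 0.00135). BC052040, beside Meis2, differed by -0.42 ± 0.13 at 12 against 0 weeks (adjusted p = 0.0325). Some of these calls were lost with 1 array left out: Rbbp8 without replicate 2 or 3 of 0 weeks or replicate 1 or 3 of 60 weeks (adjusted p = 0.0514 to 0.0776), Rad23b and Hnf4aos at 60 against 12 weeks without replicate 1 or 3 of 12 weeks or replicate 1 or 2 of 60 weeks (0.0642 to 0.0862), and BC052040 without any array of 0 weeks, replicate 1 or 3 of 12 weeks or replicate 1 of 60 weeks (0.0514 to 0.0973). The neighbours of Cdx1 and Cdx2 were too dim to be tested.

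For each factor that passed the F test, the 3 genes with the most similar profile were taken as those with the smallest root-mean-square difference over the 9 arrays of levels centred on each gene's mean. For Cdx2 these were Mtmr4, Max and Hipk1 (differences of 0.11, 0.12 and 0.13), and for Hnf4a Lacc1, Pih1d2 and Cul7 (0.09, 0.12 and 0.13). For Klf4 they were Pds5b, Adal and Mospd1 (0.12, 0.14 and 0.14), which also had their low 12 weeks value in replicate 2. The nearest genes of Gata6 were Ccnd2, Id1 and Bmp4 (0.27, 0.28 and 0.30), with Bmp4, a secreted BMP ligand, at -0.27 at 60 weeks, 1.98 at 12 weeks and 3.03 at 0 weeks. Gata4 and Meis2 had looser matches: Ints6l, Zfp37 and Dync1i1 for Gata4 (0.55, 0.61 and 0.65), and B4galnt2, Hoxc6 and Isl2 for Meis2 (0.49, 0.50 and 0.79). Hoxc6, a Hox gene, averaged 0.19 at 60 weeks, -5.37 at 12 weeks and -0.48 at 0 weeks, and it was not well above background on any 12 weeks array. These genes were selected for likeness, so their values describe and do not test it.

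**Figure D3:**
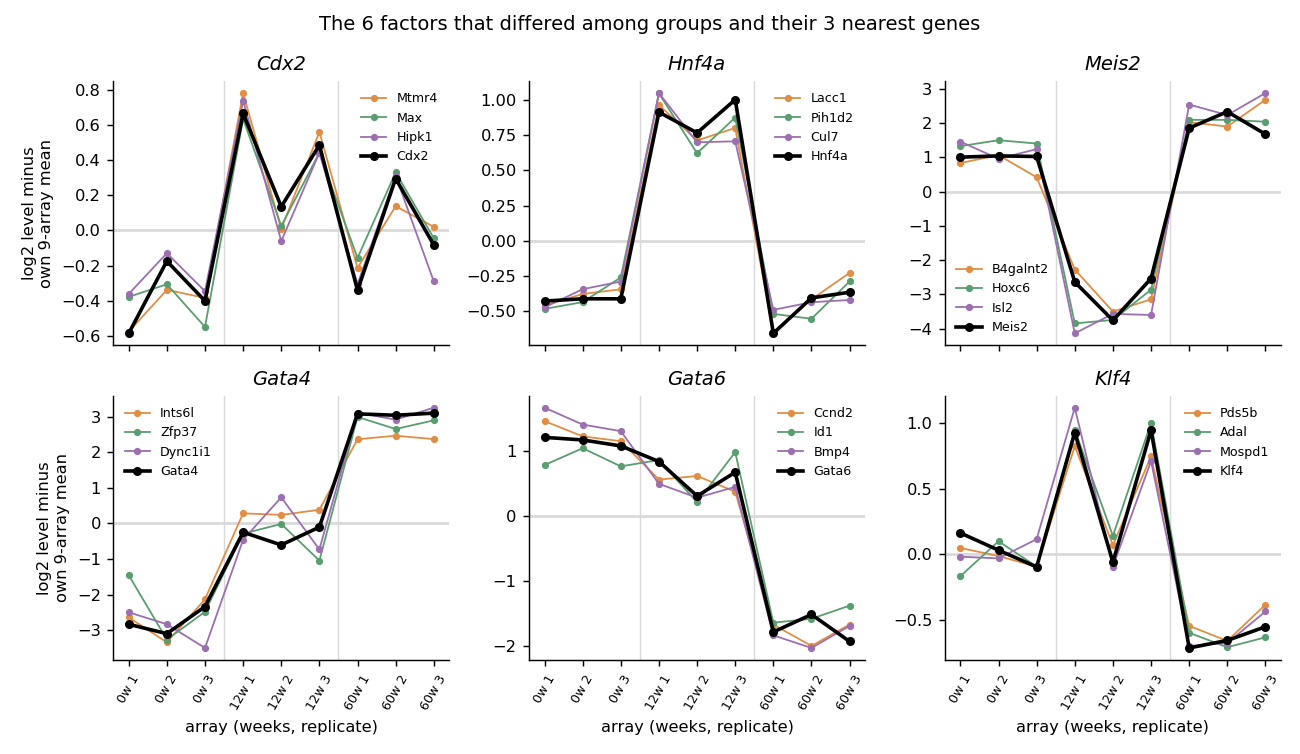
Log2 level minus each gene's own mean over the 9 arrays, for the 6 factors that passed the F test (black) and the 3 genes with the smallest root-mean-square difference to each (colours); grey lines part the 0, 12 and 60 weeks arrays. The Gata4 matches differ from Gata4 by 0.55 or more, and the Hnf4a, Cdx2 and Klf4 matches by 0.14 or less.

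Other transcription factors of the intestinal network differed in both directions. Of 32 such genes 24 were tested. At 12 against 0 weeks 8 were higher and 3 lower, against 19.1% and 22.7% of all tested genes. Their median change was 0.21, against -0.06 over all tested genes. At 60 against 0 weeks 5 were higher and 1 lower (median 0.11 against -0.04), against 16.7% and 16.1% of all tested genes. At 60 against 12 weeks 6 were higher and 8 lower (median -0.14 against 0.02), against 20.7% and 17.6%. Leaving out replicate 2 of 12 weeks, 8 were higher and 3 lower at 60 against 0 weeks.

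For a gene at background on every array of a group, an "at least" fold sets each array of the dim group to the lowest signal called well above background there, or to the gene's own signal where that was higher. Isx, an intestine-restricted homeobox factor, averaged 4.78 at 12 weeks and 2.58 at 0 weeks (change 2.20 ± 0.15, adjusted p = 1.58e-05), and 5.30 at 60 weeks (2.72 ± 0.15, adjusted p = 6.15e-06). Foxa1, a pioneer factor of gut endoderm, was higher in both treated groups by a similar amount (0.96 ± 0.12 at 12 weeks and 0.94 ± 0.12 at 60 weeks). Ascl2, a crypt stem cell factor, was measured above background only at 12 weeks, at least 5.54-fold higher than at 0 weeks (adjusted p = 6.23e-05).

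Onecut2 fell like Gata6, with a level of -3.25 ± 0.28 at 60 weeks and 1.10 ± 0.32 at 0 weeks (change -4.35 ± 0.23, adjusted p = 5.71e-06) and a smaller fall at 12 weeks (-0.98 ± 0.23, adjusted p = 0.00956). Maf was higher at 60 than at 0 weeks (1.63 ± 0.13, adjusted p = 5.01e-05) and lower at 12 than at 0 weeks (-0.56 ± 0.13, adjusted p = 0.0100). The posterior Hox genes Hoxa13, Hoxb13 and Hoxd13 were too dim to be tested.

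**Figure D4:**
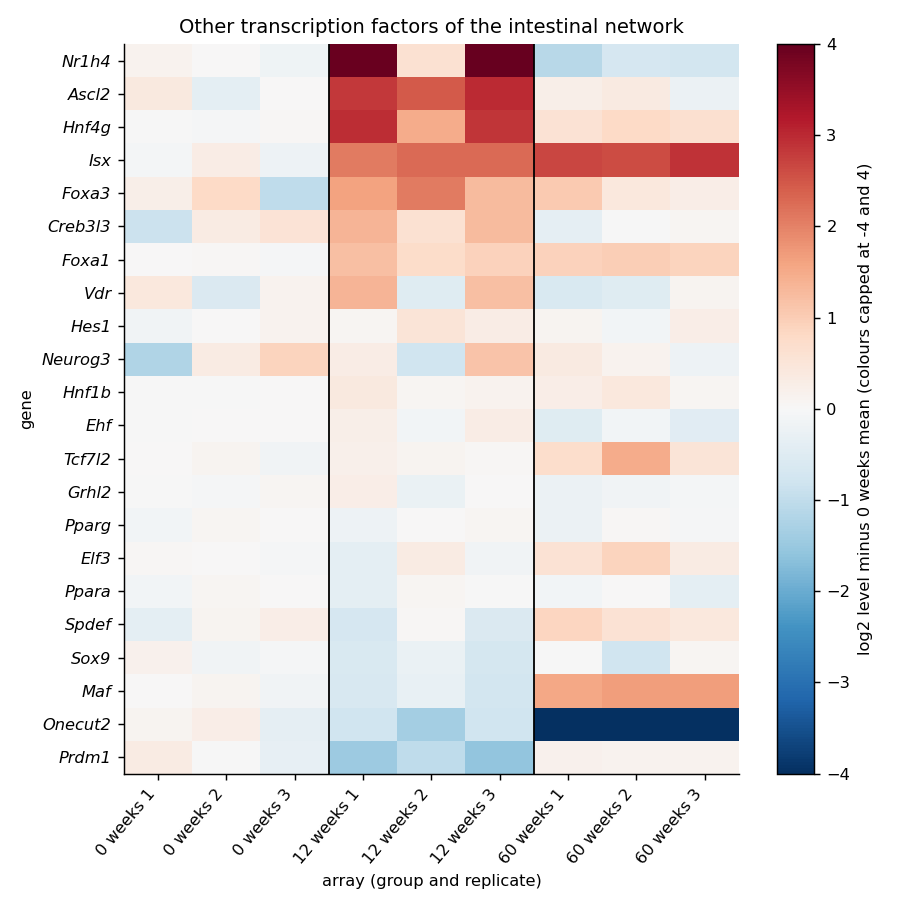
Log2 level of 22 of the 24 tested network factors on each array, minus the gene's 0 weeks mean, with genes in order of their 12 weeks mean and colours capped at -4 and 4. Isx is raised on every treated array, Onecut2 is lowest at 60 weeks, and Nr1h4, which encodes the bile acid receptor FXR, is near its untreated level in replicate 2 of 12 weeks.

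Genes known as targets of Cdx or Hnf4 factors were mostly higher at 12 weeks. Of 32 such genes 22 were tested. At 12 against 0 weeks 13 were higher and 4 lower, against 19.1% and 22.7% of all tested genes. Their median change was 0.91, against -0.06 over all tested genes. At 60 against 0 weeks 8 were higher and 2 lower (median 0.11 against -0.04), against 16.7% and 16.1% of all tested genes. At 60 against 12 weeks 2 were higher and 10 lower (median -0.48 against 0.02), against 20.7% and 17.6%. Without replicate 2 of 12 weeks, 5 were lower at 60 against 0 weeks and 4 were higher at 60 against 12 weeks.

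Muc13, a membrane mucin, averaged 7.03 ± 0.27 at 12 weeks and 3.17 ± 0.36 at 0 weeks (change 3.85 ± 0.20, adjusted p = 4.67e-06), and 7.13 ± 0.12 at 60 weeks (3.96 ± 0.20, adjusted p = 4.73e-06). Cdhr2, a cadherin that links microvilli, was likewise higher at both times (2.46 ± 0.34 and 2.76 ± 0.34). Its brush border partners Ush1c and Cdhr5 differed more at 12 weeks. Ush1c was 4.84 ± 0.21 higher at 12 than at 0 weeks (adjusted p = 1.93e-06) and 1.09 ± 0.21 higher at 60 than at 0 weeks (adjusted p = 0.00512). Cdhr5 was 1.80 ± 0.15 and 0.86 ± 0.15 higher. Gucy2c, the receptor for guanylin, was 2.21 ± 0.18 and 0.87 ± 0.18 higher. Cdh17, an intestinal cadherin bound by Cdx2, was not called at 12 weeks (0.31 ± 0.17) and was higher at 60 than at 0 weeks (1.10 ± 0.17, adjusted p = 0.00151). Against this direction, the claudin gene Cldn2 fell to -1.06 ± 0.62 at 12 weeks and -4.11 ± 0.75 at 60 weeks, against 1.95 ± 0.21 at 0 weeks (changes -3.01 ± 0.41 and -6.06 ± 0.41). Myo7b, another brush border gene, was also lower at 12 than at 0 weeks (change -0.68 ± 0.17, adjusted p = 0.0123). At 60 against 0 weeks Myo7b was not called (0.09 ± 0.17). Apoa1, Apoa4, Apoc3, Sis, Lct and Slc26a3 were among 9 target genes too dim to be tested.

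**Figure D5:**
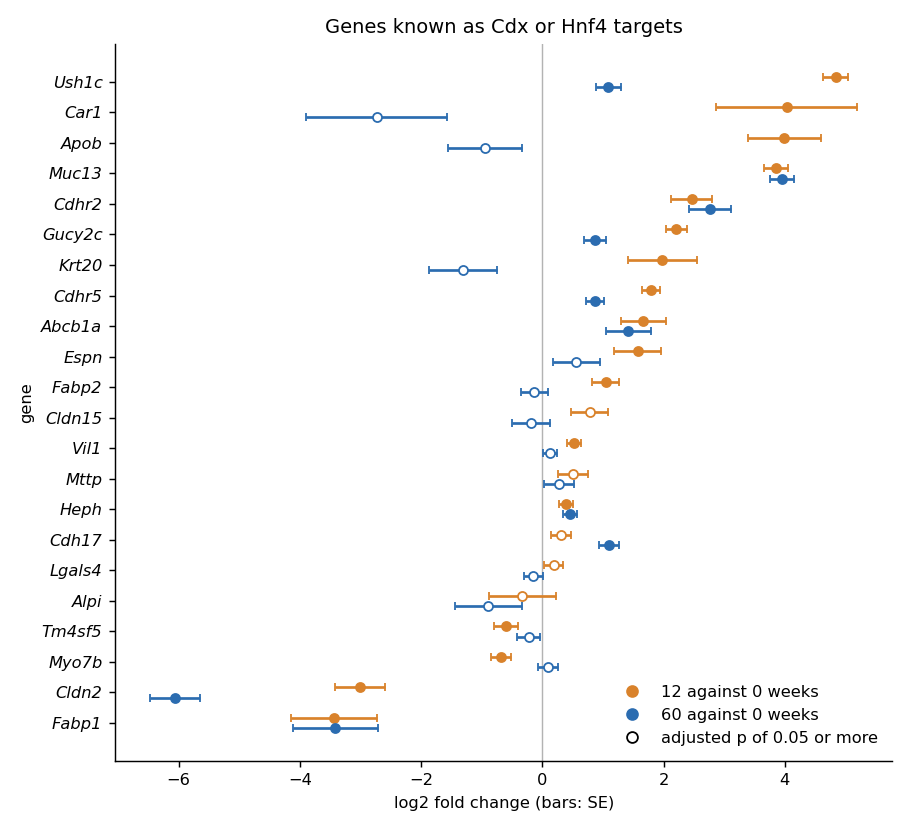
Log2 fold change with SE of the 22 tested genes known as Cdx or Hnf4 targets, at 12 against 0 weeks (orange) and 60 against 0 weeks (blue), with open points where the adjusted p was 0.05 or more. At 12 weeks 13 genes are called to the right of 0, led by Ush1c at 4.84, and at 60 weeks 8 genes, led by Muc13 at 3.96; for Apob and Fabp1, which were at background in 1 of the groups compared or in both, the fitted change is no measured fold.

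Genes linked to Klf4 or Klf5, which include cell cycle genes and keratins, had no common direction. All 14 were tested, and 5 were higher and 1 lower at 12 against 0 weeks, 4 higher and 2 lower at 60 against 0 weeks, and 1 higher and 1 lower at 60 against 12 weeks. Their median changes were 0.05, 0.04 and -0.04, against -0.06, -0.04 and 0.02 over all tested genes. In the same order, 19.1%, 16.7% and 20.7% of all tested genes were called higher and 22.7%, 16.1% and 17.6% lower. Without replicate 2 of 12 weeks, 3 of the 14 were lower at 12 against 0 weeks and 3 at 60 against 12 weeks. Ccnd1, the cyclin D1 gene, was lower at 60 than at 0 weeks (change -0.83 ± 0.10, adjusted p = 0.000533) and did not pass the test at 12 weeks (0.02 ± 0.10). Egr1 was higher in both treated groups than at 0 weeks (0.92 ± 0.19 and 0.98 ± 0.19), as was Sprr1a, a cornified envelope gene (2.39 ± 0.54 and 2.50 ± 0.54). Without replicate 2 of 12 weeks, Sprr1a was 1.65 higher at 12 than at 0 weeks. Cdkn1c was higher at 12 than at 0 weeks (0.76 ± 0.17, adjusted p = 0.00712) and at 60 than at 0 weeks (0.66 ± 0.17, adjusted p = 0.0165). The 60 weeks call was lost without replicate 1 or 3 of 0 weeks or replicate 1 or 2 of 60 weeks (adjusted p = 0.0563 to 0.0610).

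Markers of other regions moved gene by gene. In stomach and foregut, 11 of 21 genes were tested. Both at 12 and at 60 against 0 weeks, 4 were higher and 3 lower. At 60 against 12 weeks 1 was higher and 4 lower. In the order given the medians were 0.14, 0.14 and 0.18, against -0.06, -0.04 and 0.02 over all tested genes. In the same order, 19.1%, 16.7% and 20.7% of all tested genes were called higher and 22.7%, 16.1% and 17.6% lower. Without replicate 2 of 12 weeks, 3 of the 11 were higher at 60 against 12 weeks. Anxa10 and Muc1, both gastric markers, were not well above background at 0 weeks. Anxa10 was at least 42.8-fold higher at 12 than at 0 weeks (adjusted p = 2.27e-06) and at least 11.7-fold higher at 60 than at 0 weeks (adjusted p = 1.08e-05). Muc1 was at least 4.64-fold and at least 20.0-fold higher. Irx3 was 1.56 ± 0.20 and 1.98 ± 0.20 higher. Lower in both were Irx5 (-1.70 ± 0.35 and -3.49 ± 0.35) and Hoxa5 (-1.70 ± 0.15 and -1.52 ± 0.15). Irx5 was not well above background in replicates 1 and 2 of 60 weeks, so its -3.49 is a fitted value and not a measured fold. Sox2, Barx1, Pdx1, Cldn18, Gkn1, Gkn2, Tff1 and Tff2, the better known stomach and duodenum genes, were too dim to be tested, and Muc5ac was not called.

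Of 15 small intestine enterocyte markers 8 were tested. At 12 against 0 weeks 5 were higher and 1 lower (median 1.11), at 60 against 0 weeks 2 were higher and 2 lower (median -0.12), and at 60 against 12 weeks 0 were higher and 5 lower (median -1.18, or -0.87 with the genes at background in 1 group set to their bound). With those genes at their bound, the median at 12 against 0 weeks was 1.06. Over all tested genes the medians in the 3 comparisons were -0.06, -0.04 and 0.02. In the same order, 19.1%, 16.7% and 20.7% of all tested genes were called higher and 22.7%, 16.1% and 17.6% lower. Slc10a2, the ileal bile acid transporter that Gata4 is known to keep off in mouse jejunum, was not well above background at 0 weeks. It was at least 31.5-fold higher at 12 than at 0 weeks (adjusted p = 0.000554), which was at least 58.5-fold without replicate 2 and at least 20.7-fold without replicate 1 of 12 weeks. It was at least 4.18-fold higher at 60 than at 0 weeks (adjusted p = 0.0157), a call that was lost without replicate 3 of 0 weeks (0.0579). Ada, adenosine deaminase, was 2.78 ± 0.43 and 2.50 ± 0.43 higher, and at 12 weeks 2.19 higher without replicate 2. Treh, trehalase, was not well above background in either treated group, at least 2.17-fold lower at 12 and at least 1.92-fold lower at 60 than at 0 weeks. Rbp2 was lower at 60 than at 0 weeks (-1.77 ± 0.45, adjusted p = 0.0175). That change is a fitted value, since replicates 1 and 2 of 60 weeks were not well above background. Adh6a was at least 1.26-fold higher at 12 than at 0 weeks. The 60 weeks calls were lost for Treh without replicate 1 or 3 of 0 weeks (adjusted p = 0.0709 and 0.0716) and for Rbp2 without replicate 1 or 2 of 0 weeks or replicate 1 or 2 of 60 weeks (0.0536 to 0.0618). At 60 against 12 weeks 1 gene was higher at an unadjusted p under 0.05, and the same number was called without replicate 2 of 12 weeks. Sis, Lct, Apoa1, Apoa4 and Fabp6 were too dim to be tested.

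Of 12 squamous epithelium markers 9 were tested. At 12 against 0 weeks 6 were higher and 1 lower (median 1.35), at 60 against 0 weeks 3 were higher and 2 lower (median -0.03), and at 60 against 12 weeks 0 were higher, also at an unadjusted p under 0.05, and 4 lower (median -0.43). There was 1 higher in that comparison without replicate 2 of 12 weeks. Over all tested genes the medians in the 3 comparisons were -0.06, -0.04 and 0.02. In the same order, 19.1%, 16.7% and 20.7% of all tested genes were called higher and 22.7%, 16.1% and 17.6% lower. Krt6a, a stress keratin, was at least 10.9-fold higher at 12 than at 0 weeks (adjusted p = 6.78e-06) and not well above background in the other groups. Krt14, a basal keratin, was lower in both treated groups (-1.89 ± 0.20 and -3.02 ± 0.20). Lor, the loricrin gene, was 2.33 ± 0.41 higher at 12 weeks and lower at 60 weeks (-1.43 ± 0.41), both against 0 weeks. Krt15 was at least 1.59-fold higher at 12 and at least 1.27-fold higher at 60 than at 0 weeks. The 60 weeks calls were lost for Lor without any 1 array of 0 weeks or replicate 1 or 2 of 60 weeks (adjusted p = 0.0704 to 0.0899) and for Krt15 without replicate 1 or 2 of 0 weeks or replicate 1 or 2 of 60 weeks (0.0578 to 0.0716). The basal factor Trp63 was not called against 0 weeks.

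The organoids carried epithelial markers of the labelled tissue in every group. Of 16 colon epithelium markers 14 were tested, and the probes of Krt8 and Epcam, which define epithelium, were well above background on all 9 arrays. Krt8 averaged 8.46 at 60 weeks, 8.56 at 12 weeks and 8.50 at 0 weeks. Epcam averaged 4.75 at 60 weeks, 4.53 at 12 weeks and 4.81 at 0 weeks. At 12 against 0 weeks 3 were higher (Vil1, Krt20 and Car1) and 0 lower, and at 60 against 0 weeks 2 were higher (Cdh17 and Cdh1) and 0 lower. At 60 against 12 weeks 1 was higher and 4 were lower. Where limma called 0 lower, 2 had an unadjusted p under 0.05 at 12 weeks and 3 at 60 weeks. The medians were 0.19, -0.07 and -0.09, against -0.06, -0.04 and 0.02 over all tested genes. In the same order, 19.1%, 16.7% and 20.7% of all tested genes were called higher and 22.7%, 16.1% and 17.6% lower. Without replicate 2 of 12 weeks, 1 colon marker was lower at 12 against 0 weeks. With that array left out, 2 were lower at 60 against 0 weeks and 2 higher at 60 against 12 weeks. The calls of Car1 and Krt20 at 12 weeks changed with single arrays left out. Car1 was 4.03 higher, and 5.55 without replicate 2 of 12 weeks, and was not called without replicate 1 (3.52) or 3 (3.03) of 12 weeks or replicate 3 of 0 weeks (3.40). Krt20 was 1.98 higher, and 2.76 without replicate 2 of 12 weeks, and was not called without any 1 of the other 12 weeks or the 0 weeks arrays (adjusted p = 0.0525 to 0.0787). Cdh1 at 60 weeks was not called without replicate 2 or 3 of 0 weeks or replicate 1 or 2 of 60 weeks (adjusted p = 0.0637 to 0.109). The colon transporter gene Slc26a3 was too dim to be tested. Fewer cells of a type and less RNA per cell cannot be told apart in these bulk samples.

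Markers of cells outside the epithelium were few and mixed. Of 13 stromal markers 5 were tested: 1 was higher and 1 lower at 12 against 0 weeks, 0 higher and 1 lower at 60 against 0 weeks, and 1 higher and 1 lower at 60 against 12 weeks. Their summed level was 5.57 to 6.03 at 60 weeks, 5.81 to 6.30 at 12 weeks and 6.39 to 6.60 at 0 weeks (log2). Fn1, which is also expressed by epithelium, made up nearly all of that sum, with 6.39 to 6.60 alone at 0 weeks. The sum therefore says little about the other stromal genes. Vim was at least 4.73-fold higher at 12 than at 0 weeks (adjusted p = 7.89e-06), and Col1a1 was at least 3.15-fold lower; Pdgfra, Pdgfrb, Dcn and Col3a1 were too dim to be tested. Of 12 immune markers 6 were tested, with 0 higher and 1 lower in each comparison and a summed level of 5.04 to 5.35 at 60 weeks, 4.87 to 5.74 at 12 weeks and 4.54 to 4.93 at 0 weeks; Ptprc, which defines leukocytes, was too dim. Of 9 neural and glial markers 5 were tested, with 0 higher and 1 lower at 12 against 0 weeks, 2 higher (Tubb3 and Ret) and 1 lower at 60 against 0 weeks, and 2 higher and 0 lower at 60 against 12 weeks. Their summed level was 0.46 to 0.84 at 60 weeks, -0.42 to -0.13 at 12 weeks and 0.05 to 0.14 at 0 weeks; S100b and Gfap were too dim. Of 7 endothelial markers 4 were tested, with 0 called at 12 against 0 weeks, and 1 higher (Vwf) and 1 lower (Esam, not well above background at 60 or 0 weeks) at 60 against 0 weeks and again at 60 against 12 weeks. The Esam call at 60 against 0 weeks was lost without any 1 of the 0 and 60 weeks arrays or replicate 3 of 12 weeks (adjusted p = 0.0561 to 0.120). The summed level of the endothelial markers was 3.12 to 3.52 at 60 weeks, 2.79 to 3.18 at 12 weeks and 3.11 to 3.45 at 0 weeks. Most of it was Kdr, with 3.01 to 3.48 alone at 60 weeks. Cdh5 was too dim. Without replicate 2 of 12 weeks, 2 stromal genes were lower and 1 endothelial gene was lower at 12 against 0 weeks, and 2 immune genes were lower at 60 against 0 weeks. Where 0 genes of these 4 lists were called in a direction, limma gave an unadjusted p under 0.05 for 1 immune, 1 neural and 1 endothelial gene higher and 2 endothelial genes lower, all at 12 against 0 weeks, and for 0 genes in the other comparisons. Their median changes at 12 against 0, 60 against 0 and 60 against 12 weeks were -0.23, -0.16 and -0.17 for stromal, -0.14, -0.16 and 0.03 for immune, -0.42, -0.34 and 0.21 for neural, and 0.16, -0.19 and 0.18 for endothelial markers. With the genes at background in 1 group set to their bound, the endothelial median at 12 against 0 weeks was -0.11. Over all tested genes the medians in the 3 comparisons were -0.06, -0.04 and 0.02. In the same order, 19.1%, 16.7% and 20.7% of all tested genes were called higher and 22.7%, 16.1% and 17.6% lower. The part of these cell types in the changes of the 8 factors was not tested.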

How the data were processed

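Total RNA of 9 samples, 3 per group, was hybridised to Agilent single-colour arrays. Per the file headers, the authors read spot brightness with Agilent's Feature Extraction software, version 10.7.3.1; the deposited intensity of a spot is background-subtracted and was not scaled between arrays. The authors' deposited value table holds a linear signal, which equals the intensity divided by 1 constant per array that lay at 0.993 to 0.999 of the 75th percentile, and was used as an alternative only. Its column medians are 0.0668, 0.0719 and 0.0705 for 0 weeks, 0.0619, 0.0681 and 0.0733 for 12 weeks and 0.0673, 0.0695 and 0.0582 for 60 weeks, on a linear scale with no centring of genes. The log2 levels used here were computed from the deposited intensities, with the 75th percentile of the array's non-control probes subtracted, after outlier spots (117 to 163 of 59305) were set missing and spots of a probe were averaged. No spot was saturated.

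Gene symbols came from a RefSeq table (GRCm38.p6), matched on the probe's accession: 27235 of 55681 had 1 symbol, 0 had several and 28446 had none, which left 20660 named genes, each given by its brightest probe. Genes well above background on at least 2 of 3 arrays of at least 1 group were tested with limma 3.58.1 in R 4.3.3 (lmFit and eBayes over all 9 arrays, no replicate block), with p-values adjusted by Benjamini-Hochberg over 14034 genes. The fit was tested on simulated data. Precision is limited by 3 arrays per group.

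The factors and gene lists were chosen with earlier results of these data known. All 8 factors are named. From each list (intestinal transcription network, Cdx and Hnf4 targets, Klf targets, family members, stomach and foregut, squamous, small intestine enterocyte, colon epithelium, stromal, immune, neural and glial, endothelial) the genes named are up to 4 in order of adjusted p at 60 against 0 weeks and up to 4 at 12 against 0 weeks, with further members named only to complete a family or to say what was not called or too dim. Some genes that this rule names are not reported here, though the counts include them. Neighbours and nearest profiles follow the rules given with them.

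Alternatives covered background correction, scaling, dim probes, the value table, blocks, spread models and each array left out. The normexp correction (offset 50) was run on the median spot and background intensities, since the mean spot intensity was not used here. The alternative that replaces a factor's probe by another one was not run, since each factor has 1 probe.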

Additional observations from a re-analysis of the deposited data

How the results depend on the processing

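Across 567 changes of the factors recomputed under the alternatives, 529 were classed as unchanged. For a refitted change this means the same direction and the same side of the threshold. Changes taken relative to the median of the chromosome have no p-value. They were classed as unchanged where that median was smaller than the larger SD of the groups compared. The calls of Cdx2, Hnf4a, Gata4 and Meis2 at 12 against 0 weeks, of Gata4 and Gata6 at 60 against 0 weeks, and of Hnf4a, Gata4, Gata6, Klf4 and Meis2 at 60 against 12 weeks were kept in every alternative that gave a value; Gata4 and Meis2 had none with probes above background on all arrays, and Gata6 had none in the deposited value table. With probes above background on all arrays, limma called 3 factors at 12 against 0 weeks, only 1 between 60 and 0 weeks and 3 between 60 and 12 weeks, because fewer factors were tested. At 60 against 0 weeks 1 factor was called in the value table, where Gata6 has no value, and 4 with only the 2 groups compared, with trend and robust eBayes and with array weights (the cause was not tested). Leaving out 1 array gave 2 to 4. Genes called at 60 against 0 weeks numbered 4600 as reported, 3044 with the array median and 7605 with array weights. The cause was not tested. With the slide row as a block they numbered 1392. All 0 weeks arrays shared a slide row with replicate 1 of 12 weeks, and no row held both 0 and 60 weeks arrays. That block therefore compares 60 with 0 weeks only through 12 weeks arrays, and group cannot be fully told apart from slide row. At 60 against 12 weeks, 5378 genes were called as reported and 3468 with the row block, in which fewer arrays bear on each comparison.

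With the array median, the median change of all genes moved by 0.12 at 60 against 0 weeks and by 0.14 at 60 against 12 weeks, and the share of calls that were higher was 65.9% at 60 against 0 weeks (50.9% as reported) and 68.2% at 60 against 12 weeks (54.0% as reported). Signs turned only for changes that were not called. Relative to the median of its chromosome, Klf5 at 12 against 0 weeks was -0.05 (0.15 as reported). At 60 against 0 weeks Hnf4a was 0.065 with the array median and -0.11 to 0.032 with 1 array left out, and Klf5 was 0.083 with the array median, 0.058 with the slide block, 0.24 with the row block and -0.15 to 0.058 with 1 array left out. Cdx1 was -0.70 to 0.12 at 12 against 0 weeks with 1 array left out; at 60 against 12 weeks it was 0.029 with the row block, 0.47 with array weights and -0.59 to 0.23 with 1 array left out. Array weights also brought Cdx1 at 12 against 0 weeks (adjusted p = 0.0429), Klf4 at 12 against 0 weeks (0.000793) and Klf5 at 60 against 12 weeks (0.0394) past the threshold. The slide block equals leaving out replicate 3 of 60 weeks, the 1 array on its own slide.

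Same-numbered replicates deviated together weakly (correlations of -0.08 to 0.20). The labels do not say whether equal numbers share an origin, and correlations over so few arrays cannot decide it. With the replicate block, 5795, 4453 and 5246 genes and 5, 2 and 5 factors were called in the 3 comparisons (12 and then 60 against 0 weeks, then 60 against 12 weeks), and no factor's call changed. Of 171 called changes of list genes and neighbours, 1 was lost without replicate 2 of 12 weeks and 18 to 32 without any other 1 array. Leaving out arrays for list genes and neighbours was chosen after seeing the data.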
